A study of Mus musculus with 10 samples.

Results

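The genes described here make and staff the machinery that brings nuclear-encoded proteins into mitochondria and that disposes of damaged ones, measured in mouse hearts lacking Larp7. They were chosen by name: all symbols beginning with Timm, Tomm or Chchd and a digit, plus Samm50, Immt, Lonp1, Clpp, Clpx, Afg3l2, Spg7, Yme1l1, Oma1, Pmpca, Pmpcb, Grpel1 and Grpel2. This gave 46 genes of the 20983 listed in 2 deposited tables together. There were 30 of them in the E15.5 table and 44 in the adult one, with 28 in both, and every listed one passed the filter on low values. Genes were matched by these symbols only. In the adult table alone were 16: Tomm22, Tomm70a, Samm50, Timm8b, Timm9, Timm13, Timm21, Timm23, Timm29, Grpel2, Chchd1, Chchd10, Lonp1, Clpp, Afg3l2 and Chchd2.ps. Tomm6 and Tomm6os were in the E15.5 table alone. The rule used no measured value.

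All mice were on the C57BL/6 background. The embryonic samples were 3 whole hearts labelled Larp7-/- and 3 labelled Larp7+/+, at day E15.5, the knockout being a conventional one that affects every cell type. The adult samples were apex tissue of hearts at 4 months, 2 labelled mCKO (Myh6Cre;Larp7f/f) and 2 labelled CTR (Larp7f/f). Myh6-Cre acts in cardiomyocytes, so other heart cells of mCKO mice keep the gene, and CTR mice carry the floxed allele without the Cre, so that the Cre and the deletion cannot be told apart. Larp7 encodes the protein that stabilises 7SK RNA, through which the transcription elongation kinase P-TEFb is held inactive. Nothing in the labels says that replicates are different animals. The p-values may thus reflect technical spread alone.

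Nearly all mitochondrial proteins are made in the cytosol and enter through the TOM complex of the outer membrane, after which separate routes lead to the outer membrane, the intermembrane space, the inner membrane and the matrix. Presequences are removed in the matrix, and proteases of the matrix and inner membrane degrade or process proteins on arrival and under stress. Cardiomyocytes are packed with mitochondria, and this machinery is abundant in the heart.

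The deposited values are scaled to a common total, rounded to whole numbers, and sum to between 998498 and 1001508 per E15.5 sample and between 999063 and 1000423 per adult sample, so sequencing depth is not known. For each listed import and quality control gene, the knockout and control values that share a replicate number have a constant sum, within 2. A knockout sample is therefore read against the control of its own number, and the SDs of both groups mirror each other. A log2 change is the limma estimate of knockout minus control on the log2(value + 1) scale, which understates changes of low values, with the replicate number as a block. A gene is called higher or lower where p, adjusted by Benjamini-Hochberg over all genes tested in its table, is under 0.05. Larp7 itself had values of 45, 54 and 40 in E15.5 Larp7-/- hearts, against 96, 88 and 103 in Larp7+/+ hearts (log2 change -1.04, SE 0.17, limma adjusted p = 0.00159). It was not called without the rounding variance or with only genes of a mean of at least 10, where no E15.5 gene was. In the adult it had 26 and 24 in mCKO, against 26 and 28 in CTR (log2 change -0.11, adjusted p = 0.933), so the RNA does not check the adult labels. Of all genes, 72 were called higher and 14 lower in E15.5 Larp7-/- hearts, and 347 higher and 141 lower in adult mCKO hearts. The 5 cardiomyocyte markers in the E15.5 table summed to 12848 to 16189 in Larp7-/- hearts and to 17596 to 20938 in Larp7+/+ hearts. The 10 in the adult table summed to 58967 to 59409 in mCKO and to 62982 to 63425 in CTR, so the labelled tissue carried its defining transcripts in every sample.

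In E15.5 hearts, import genes mostly had lower values in Larp7-/- than in Larp7+/+ samples, by a median log2 change of -0.23 against a median of 0.11 over all 13609 genes tested. The estimate was negative in 27 of the 30 genes, or 90%, where 33.1% of all tested genes had a negative one and 60.4% a positive one. None of the 30 passed limma's adjusted p of 0.05, a threshold that 0.632% of all genes passed, 0.529% as higher and 0.103% as lower. At an unadjusted p of 0.05, 5 were lower and 0 higher, where 3.62% of all genes were lower and 10.3% higher. Those 5 were Chchd6, Tomm5, Timm10, Spg7 and Tomm6. In 15 of the 30 the Larp7-/- and Larp7+/+ values did not overlap with the knockout lower, which held for 8.75% of all genes. In 0 of them did they not overlap with the knockout higher, against 19.3% of all genes. Read by replicate number, 15 were lower in every pair and 0 higher in every pair, against 8.78% and 19.5% of all genes. Since paired values have a near constant sum, these counts restate the lack of overlap and are not a second result. The median of the 30 was negative within each replicate number, at -0.21, -0.25 and -0.23 for numbers 1, 2 and 3. The numbers were not alike, with 28, 20 and 24 genes lower and 0, 9 and 2 higher in turn. Of all genes, 35.5%, 27.9% and 31.3% were lower. In bulk tissue, fewer cells of a type and less RNA per cell cannot be told apart. The cardiomyocyte markers had estimates of the same sign, 5 of 5 negative with a median of -0.43 and 0 called. Of the erythroid markers, 7 of 8 had positive estimates with a median of 0.41, summing to 4234 to 8676 in Larp7-/- and 2345 to 6558 in Larp7+/+ hearts. Of the fibroblast markers, 4 of 5 were positive with a median of 0.33 and 1 called higher, summing to 4561 to 5476 in Larp7-/- and 3683 to 4601 in Larp7+/+ hearts. All 6 stratified epithelium markers tested were positive with 1 called higher, summing to 71 to 232 in Larp7-/- and 61 to 98 in Larp7+/+ hearts. Of the 2 smooth muscle and pericyte markers tested, 1 was called lower (adjusted p = 0.00694), and the pair summed to 122 to 146 in Larp7-/- and 141 to 166 in Larp7+/+ hearts. Endothelial markers were positive in 5 of 7 with a median of 0.18 and 0 called, and macrophage markers positive in 1 of 2. The part of these cell types in the lower import values was not tested.

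**Figure D1:**
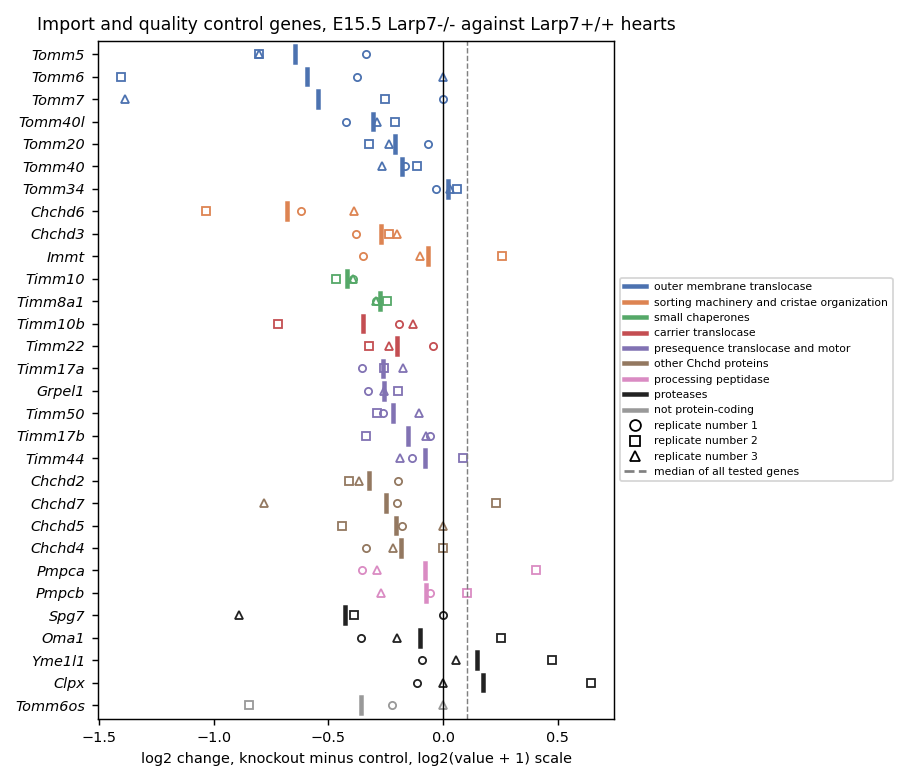
Log2 change of each of the 30 import and quality control genes at E15.5, Larp7-/- minus Larp7+/+, on the log2(value + 1) scale. Open symbols are the 3 replicate numbers, bars the limma estimate, colours the role, and the dashed line the median of all tested genes; 27 of the 30 bars lie left of 0.

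The TOM complex held several of the lowest estimates. Tomm5, Tomm6 and Tomm7 are its small subunits, which help to assemble and steady the complex around the pore. Tomm5 had values of 56, 46 and 46 in Larp7-/- hearts, against 71, 81 and 81 in Larp7+/+ hearts. The groups did not overlap, and the knockout mean of 49.3 ± 5.77 was 63.5% of the control mean of 77.7 ± 5.77 (SD, n = 3 each). Its log2 change was -0.65 with an SE of 0.16 and limma's adjusted p was 0.0571. Without Larp7-/- sample 2 it was called lower, at -0.57. Tomm6 had 26, 16 and 30 in Larp7-/- hearts, against 34, 44 and 30 in Larp7+/+ hearts (log2 change -0.59, SE 0.25, adjusted p = 0.334). Pair 3 was equal, and pair 2 differed most. Without Larp7-/- sample 3 or Larp7+/+ sample 3 it was called lower, at -0.89, and without sample 2 of either group the estimate was -0.19 and not called. The antisense transcript Tomm6os (chr17:47687610-47691083 on mm10, plus strand) overlaps Tomm6 (chr17:47686646-47688386, minus strand), and no source used here states whether counting used strand, so their reads cannot be told apart. Tomm6os had 5, 4 and 6 in Larp7-/- hearts, against 6, 8 and 6 in Larp7+/+ hearts. Tomm7 had 22, 20 and 12 in Larp7-/- hearts, against 22, 24 and 33 in Larp7+/+ hearts (log2 change -0.55, SE 0.25, adjusted p = 0.359). Here pair 1 was equal and pair 3 carried the difference, the estimate being -0.13 without sample 3 of either group.

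The pore and the receptor Tomm20 of the same complex had estimates nearer 0. The receptors Tomm22 and Tomm70a were not listed at E15.5. Tomm40, the channel, had 157, 160 and 151 in Larp7-/- hearts, against 176, 173 and 182 in Larp7+/+ hearts (log2 change -0.18). Tomm40l, its paralogue, had 46, 50 and 49 in Larp7-/- hearts, against 62, 58 and 60 in Larp7+/+ hearts (log2 change -0.31). Tomm20, a receptor for presequences, had 196, 178 and 184 in Larp7-/- hearts, against 205, 223 and 217 in Larp7+/+ hearts (log2 change -0.21). All 3 were lower in the knockout sample of each number, with adjusted p-values of 0.651, 0.396 and 0.602. Tomm34, a cytosolic co-chaperone of import rather than a subunit, stood apart at 48, 49 and 49 in Larp7-/- hearts, against 49, 47 and 48 in Larp7+/+ hearts. Over the 7 protein-coding Tomm genes listed at E15.5, the median log2 change was -0.31 and 6 estimates were negative.

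The genes that shape the cristae differed among themselves. Immt, Chchd3 and Chchd6 encode subunits of MICOS, the complex at the crista junctions. Chchd6 had 25, 21 and 28 in Larp7-/- hearts, against 39, 44 and 37 in Larp7+/+ hearts. The means were 24.7 ± 3.51 in Larp7-/- and 40.0 ± 3.61 in Larp7+/+ hearts (SD, n = 3 each), a ratio of 61.7%, with a log2 change of -0.68, an SE of 0.18 and limma's adjusted p = 0.0694. It was the lowest estimate of the 30 genes, and the groups did not overlap. Without Larp7-/- sample 3 or Larp7+/+ sample 3 it was called lower, at -0.83. Chchd3 had 261, 276 and 280 in Larp7-/- hearts, against 340, 325 and 322 in Larp7+/+ hearts (log2 change -0.27, SE 0.17, adjusted p = 0.49), also without overlap. Immt, the core subunit, had 636, 789 and 699 in Larp7-/- hearts, against 811, 660 and 749 in Larp7+/+ hearts. Its groups overlapped, the second number going the other way (log2 change -0.06, adjusted p = 0.908).

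Promoter windows of 4 of these genes are printed as examples. Tomm5, Chchd6 and Timm10 had no overlap between groups at E15.5 and opposite signs in the adult, as did others such as Timm17a and Timm50. Grpel1 carries matches to 2 of the motifs searched, as do Timm23 and Timm8b. They come from RefSeq on GRCm38.p6 and run from 250 bases before to 50 after the annotated start, 5′ to 3′ along the gene's own strand. Capitals mark motif matches on either strand.
Tomm5, chr4:45108064-45108363, minus strand, no match: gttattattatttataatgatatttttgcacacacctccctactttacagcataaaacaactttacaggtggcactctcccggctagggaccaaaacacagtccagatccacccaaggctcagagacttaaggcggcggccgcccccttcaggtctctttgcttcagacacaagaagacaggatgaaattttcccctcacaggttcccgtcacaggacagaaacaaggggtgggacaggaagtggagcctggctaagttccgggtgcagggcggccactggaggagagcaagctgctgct
Chchd6, chr6:89595603-89595902, minus strand, 1 match to the estrogen-related receptor core: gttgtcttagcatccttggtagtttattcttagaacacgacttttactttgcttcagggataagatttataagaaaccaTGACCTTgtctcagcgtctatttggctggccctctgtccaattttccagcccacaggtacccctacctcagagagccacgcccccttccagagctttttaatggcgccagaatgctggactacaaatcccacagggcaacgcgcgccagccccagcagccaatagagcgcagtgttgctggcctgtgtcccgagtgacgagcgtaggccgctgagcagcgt
Timm10, chr2:84826771-84827070, plus strand, 3 matches to the ETS core of which 2 overlap each other: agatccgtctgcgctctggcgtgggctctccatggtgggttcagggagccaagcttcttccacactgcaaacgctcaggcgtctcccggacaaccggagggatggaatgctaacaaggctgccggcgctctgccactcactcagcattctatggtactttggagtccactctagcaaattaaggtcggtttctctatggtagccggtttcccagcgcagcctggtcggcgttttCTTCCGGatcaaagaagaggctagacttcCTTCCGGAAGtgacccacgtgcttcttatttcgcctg
Grpel1, chr5:36464935-36465234, plus strand, 1 match to the ETS core and 1 to the NRF1 core: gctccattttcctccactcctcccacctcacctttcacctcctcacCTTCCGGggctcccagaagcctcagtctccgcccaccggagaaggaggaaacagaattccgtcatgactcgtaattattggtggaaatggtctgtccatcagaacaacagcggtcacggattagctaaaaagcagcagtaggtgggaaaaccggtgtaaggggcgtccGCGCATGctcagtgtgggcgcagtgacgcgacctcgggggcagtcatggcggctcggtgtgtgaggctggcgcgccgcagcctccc

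NRF1 and the ETS-family factor GABP are known activators of nuclear genes for mitochondrial proteins, and estrogen-related receptors do the same in heart and muscle. Of the 44 protein-coding genes chosen, 37 have a window in the RefSeq table. The ETS core CCGGAAG was in the windows of 16 of them, or 43.2%, where 17.9% of 11589 genes tested in either table and 9.93% of all 27025 genes with a window held it. The NRF1 core GCGCATG was in 3 (Clpx, Grpel1 and Timm13), or 8.11%, against 7.33% of tested genes and 4.41% of all. The estrogen-related receptor core AAGGTCA was in 4 (Chchd6, Timm23, Timm44 and Timm8b), or 10.8%, against 4.17% and 5.38%. The CHOP-ATF4 core TGATGCA, a stress-response element, was in Chchd10 and Timm22, or 5.41%, against 2.41% and 3.63%. The cyclic AMP response core TGACGTC was in 0 of the 37, against 5.71% and 3.6%. At E15.5, the 10 genes with an ETS core had a median log2 change of -0.14, and the 15 with a window and no ETS core one of -0.21. The 10 include the long Immt, Pmpca, Pmpcb and Yme1l1 and the short Timm10 and Timm10b. Coding length, which the E15.5 change followed as described below, was not matched between these sets, and their difference was not tested. The letters are a description of these windows only.

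The small chaperones of the intermembrane space carry hydrophobic proteins from TOM to their destination membrane. Timm10, a partner of Timm9 in such a chaperone, whose promoter is printed above, had 34, 33 and 34 in Larp7-/- hearts, against 45, 46 and 45 in Larp7+/+ hearts. The means were 33.7 ± 0.577 in Larp7-/- and 45.3 ± 0.577 in Larp7+/+ hearts (SD, n = 3 each), 74.3% of control, with a log2 change of -0.42, an SE of 0.17 and adjusted p = 0.252. Within each group its values differed by 1 at most, as did those of Timm8a1. Timm8a1 had 57, 58 and 57 in Larp7-/- hearts, against 70, 69 and 70 in Larp7+/+ hearts (log2 change -0.28, SE 0.16, adjusted p = 0.444). Timm10 (chr2:84826997-84830213) and Timm8a1 were called lower, with Chchd6 and Tomm5, in a fit without the replicate block, which calls 1.28% of all genes lower and 3.16% higher. That fit counts mirrored deviations as independent.

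Carriers and other inner-membrane proteins without presequences pass through the TIM22 translocase. Timm22, its pore, had 65, 59 and 61 in Larp7-/- hearts, against 67, 74 and 72 in Larp7+/+ hearts (log2 change -0.20, adjusted p = 0.603). Timm10b, a small Tim protein bound to that translocase, had 20, 16 and 20 in Larp7-/- hearts, against 23, 27 and 22 in Larp7+/+ hearts (log2 change -0.35, SE 0.20, adjusted p = 0.446). Neither gene's groups overlapped, but pair 2 carried most of the Timm10b estimate, which was -0.16 without sample 2 of either group.

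**Figure D2:**
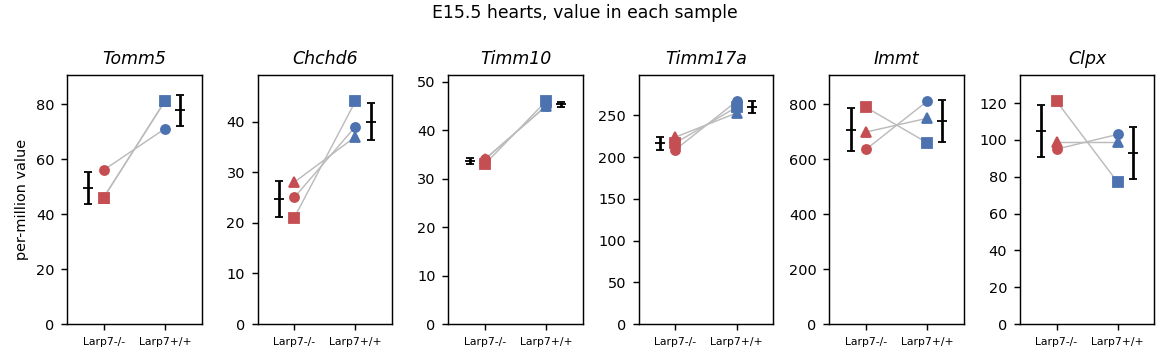
Deposited values (y axis, scaled to a common total) of 6 genes in each E15.5 heart, Larp7-/- in red and Larp7+/+ in blue, with grey lines joining samples of the same replicate number (circle 1, square 2, triangle 3) and bars for mean and SD. Tomm5, Chchd6, Timm10 and Timm17a do not overlap between groups, while Immt and Clpx cross at number 2.

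The TIM23 translocase admits proteins with presequences and, with its motor, pulls them into the matrix. The 5 of its genes listed at E15.5 all had negative estimates, with a median of -0.22. The channel gene Timm23, with Timm21 and Grpel2, was not listed at E15.5. Timm17a, part of the translocation path, had 209, 217 and 224 in Larp7-/- hearts, against 267, 260 and 253 in Larp7+/+ hearts (log2 change -0.26, SE 0.16, adjusted p = 0.499). Timm50, the receptor that takes presequences from TOM, had 135, 134 and 143 in Larp7-/- hearts, against 162, 164 and 154 in Larp7+/+ hearts (log2 change -0.22, adjusted p = 0.567). Grpel1, the nucleotide exchange factor of the motor's Hsp70, had 149, 157 and 153 in Larp7-/- hearts, against 187, 180 and 183 in Larp7+/+ hearts (log2 change -0.26, SE 0.16, adjusted p = 0.499). None of these 3 overlapped between groups. Timm17b, the second Timm17 form, had 76, 68 and 75 in Larp7-/- hearts, against 79, 86 and 79 in Larp7+/+ hearts (log2 change -0.15, adjusted p = 0.708). Timm44, which tethers the motor to the channel, had 139, 151 and 137 in Larp7-/- hearts, against 153, 142 and 156 in Larp7+/+ hearts (log2 change -0.08, adjusted p = 0.855). Its second number went the other way.

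The remaining Chchd proteins carry twin cysteine motifs, and Chchd4 is the oxidoreductase that traps such proteins in the intermembrane space. Chchd4 had 110, 124 and 115 in Larp7-/- hearts, against 139, 124 and 134 in Larp7+/+ hearts (log2 change -0.18, adjusted p = 0.641), with the second pair equal. Chchd2, mutated in inherited Parkinson's disease in humans, had 396, 364 and 371 in Larp7-/- hearts, against 454, 484 and 478 in Larp7+/+ hearts (log2 change -0.32, SE 0.17, adjusted p = 0.398). These groups did not overlap, the knockout mean being 79.9% of control. Chchd5 and Chchd7 had log2 changes of -0.21 and -0.25, with adjusted p-values of 0.714 and 0.579. In the authors' deposited table, 5 of the 30 genes had an unadjusted p under 0.05, all lower, where 2.23% of all genes were lower and 1.73% higher by that p. By the same unadjusted p of the authors' deposited table (their model across all genes), they were Tomm5 at p = 0.00771, Chchd2 at 0.00842, Chchd3 at 0.0277, Chchd6 at 0.0338 and Timm17a at 0.0453. The authors' deposited table gives an adjusted p for 14 of the 30, of which the lowest was 0.158, for Chchd2.

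The enzymes listed at E15.5 that act after import had estimates nearer 0, with the exception of Spg7. The proteases Lonp1, Clpp and Afg3l2 were not listed at E15.5. Pmpca and Pmpcb form the peptidase that removes presequences. Pmpca had 165, 215 and 170 in Larp7-/- hearts, against 211, 162 and 208 in Larp7+/+ hearts (log2 change -0.08, adjusted p = 0.873). Pmpcb had 146, 155 and 135 in Larp7-/- hearts, against 152, 144 and 163 in Larp7+/+ hearts (log2 change -0.07, adjusted p = 0.87). In both, the second knockout sample was higher than its control and the others lower. Spg7, a subunit of the m-AAA protease of the inner membrane, had 66, 57 and 46 in Larp7-/- hearts, against 66, 75 and 86 in Larp7+/+ hearts (log2 change -0.43, SE 0.17, adjusted p = 0.261). Pair 1 was equal and pair 3 differed most, and without sample 3 of either group the estimate was -0.195. Oma1, the stress-activated protease that cleaves the fusion protein OPA1, had 24, 30 and 26 in Larp7-/- hearts, against 31, 25 and 30 in Larp7+/+ hearts (log2 change -0.10, adjusted p = 0.849). Yme1l1, the i-AAA protease, had 341, 410 and 360 in Larp7-/- hearts, against 363, 295 and 346 in Larp7+/+ hearts (log2 change 0.15, adjusted p = 0.753). Clpx, the unfoldase of the matrix protease ClpXP, had 95, 121 and 99 in Larp7-/- hearts, against 103, 77 and 99 in Larp7+/+ hearts (log2 change 0.18, adjusted p = 0.685). Yme1l1, Clpx and Tomm34 were the 3 genes with positive estimates, and in Yme1l1 and Clpx the second pair carried them.

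At E15.5 the change also followed the length of the coding sequence, and many import genes are short. Among all genes with a mean value of at least 10, the median log2 change was -0.26 in the 142 genes with a coding length of up to 300 nucleotides, and 75.4% of their estimates were negative. It was 0.18 in the 1056 genes over 3000 nucleotides, of which 16.5% were negative. Coding lengths were available for 88.7% of these genes. The import and quality control genes lay below the median of their own length bin in 27 of 29 cases, by a median of 0.21 on the log2 scale. The medians of the import and quality control genes alone were -0.42 up to 300 nucleotides, -0.21 to 450, -0.23 to 600, -0.27 to 900, -0.20 to 1200, -0.08 to 1800 and 0.04 to 3000. In the same bins the medians of all genes were -0.26, -0.17, -0.10, 0.00, 0.05, 0.13 and 0.17. The short Tomm5, Tomm6 and Tomm7 had 3 of the 4 lowest estimates and the long Clpx and Yme1l1 the highest, while Chchd6 and Spg7 were low for their length. The Spearman correlation between change and coding length was 0.617 across the 29 genes and 0.35 across all 7419, given as a description, since genes of 1 library share its quality and depth. In the adult the 39 genes with a length and a mean of at least 10 had one of -0.33 and all genes one of 0.0605, and 22 of the 39 lay below their bin's median. The part of length in the E15.5 values was not tested further.

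**Figure D3:**
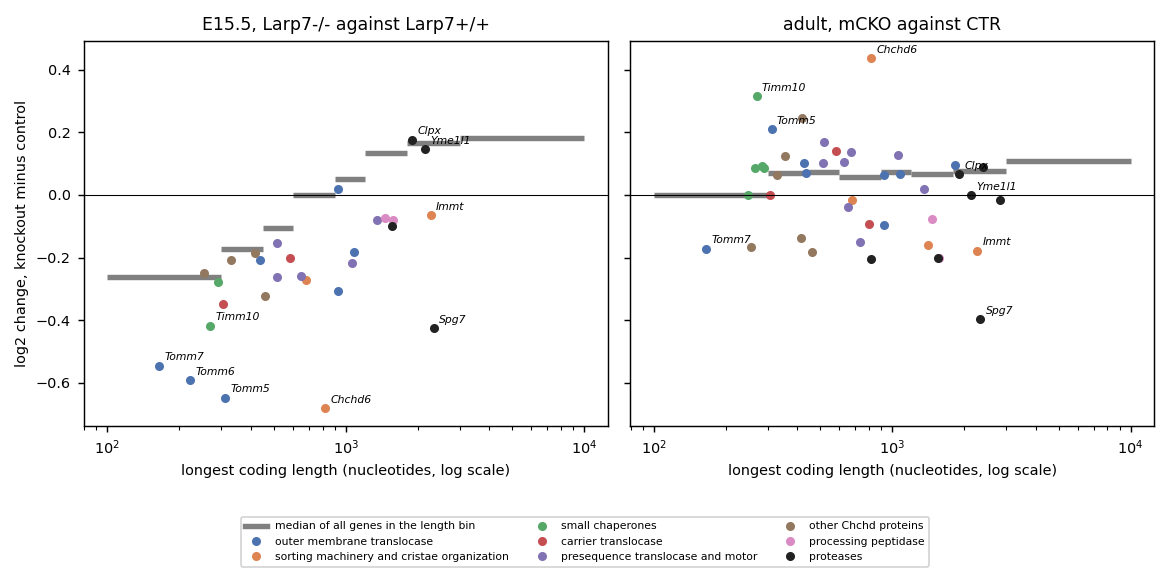
Log2 change of the import and quality control genes against their longest coding length (log axis, nucleotides), at E15.5 (left) and in the adult (right), coloured by role. Grey bars are the medians of all genes in each length bin, which run from -0.26 to 0.18 at E15.5 and from 0.00 to 0.11 in the adult; 27 of 29 E15.5 points lie below their bar.

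In the adult apex the same machinery showed no common direction. The median log2 change of the 44 genes was 0.04 and that of all 14835 tested genes 0.08, and with median-of-ratios scaling they were -0.02 and 0.02, so the sign of the first turns with the scaling. Of the 44 estimates 17 were negative, 23 positive and 4 exactly 0. That is 38.6% negative and 52.3% positive, where 28.6% of all tested genes were negative and 57.9% positive. None passed limma's adjusted p of 0.05, which 3.29% of all genes passed, 2.34% as higher and 0.95% as lower. At an unadjusted p of 0.05 there was 1 lower gene, Spg7, and 1 higher, Timm10, where 3.3% of all genes were lower and 9.05% higher. The groups did not overlap with the mCKO samples lower in 13 genes, or 29.5%, where 12.8% of all genes did so. They did not overlap with the mCKO samples higher in another 13, against 29.3% of all genes. Since paired values have a near constant sum, lack of overlap here says little more than that both pairs had the same sign. The same shares stand behind each adult gene said below not to overlap. By the authors' deposited table, 0 of the 44 genes had an unadjusted p under 0.05, where 0.897% of all genes were lower and 0.512% higher by that p. With 2 samples a group, and numbers that mirror each other, a gene's SE rests on spread pooled over genes.

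**Figure D4:**
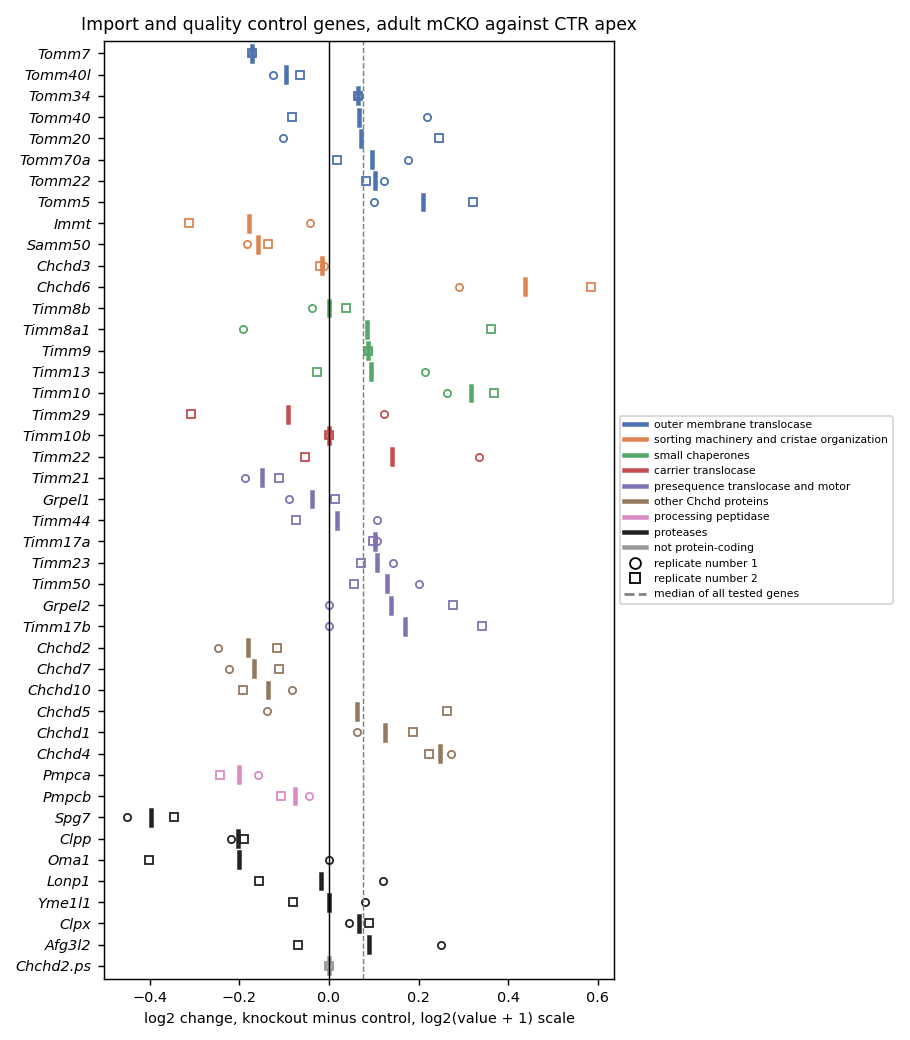
Log2 change of each of the 44 import and quality control genes in the adult apex, mCKO minus CTR, on the log2(value + 1) scale. Open symbols are the 2 replicate numbers, bars the limma estimate, colours the role and the dashed line the median of all tested genes; Spg7 is lowest at -0.40 and Chchd6 highest at 0.44.

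The 7 proteases had 4 negative, 2 positive and 1 zero estimate in the adult, with a median of -0.02, and Spg7 had the lowest estimate of the 44 genes. Spg7 (chr8:123062942-123097760, plus strand) had 70 and 73 in mCKO, against 96 and 93 in CTR. The means were 71.5 ± 2.12 in mCKO and 94.5 ± 2.12 in CTR (SD, n = 2 each), 75.7% of control, with a log2 change of -0.40, an SE of 0.15 and adjusted p = 0.135. Both pairs went the same way by a like amount. Spg7 was called lower in the fit without the block, where 1.06% of all genes were lower and 1.7% higher, and in that fit without mCKO sample 2 (-0.43) or CTR sample 2 (-0.42), with the lone sample assumed to vary like the other group. Its partner Afg3l2, measured in the adult table alone, had 156 and 140 in mCKO, against 131 and 147 in CTR (log2 change 0.09, adjusted p = 0.933), the 2 pairs going opposite ways. Clpp, the peptidase of ClpXP, had 48 and 49 in mCKO, against 56 and 56 in CTR (log2 change -0.20, SE 0.15, adjusted p = 0.673). Its unfoldase Clpx had 66 and 66 in mCKO, against 64 and 62 in CTR (log2 change 0.07, adjusted p = 0.945). Neither of these 2 overlapped between groups.

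Lonp1, the main soluble protease of the matrix, had 173 and 157 in mCKO, against 159 and 175 in CTR (log2 change -0.02). Yme1l1 had 72 and 68 in mCKO, against 68 and 72 in CTR, an estimate of 0. Oma1 had 28 and 24 in mCKO, against 28 and 32 in CTR (log2 change -0.20, adjusted p = 0.761). The values of these 3 proteases met or overlapped between groups. Pmpca had 111 and 108 in mCKO, against 124 and 128 in CTR (log2 change -0.20, SE 0.15, adjusted p = 0.667). Pmpcb had 158 and 155 in mCKO, against 163 and 167 in CTR (log2 change -0.08, adjusted p = 0.933). Both peptidase subunits were lower in mCKO without overlap, and neither passed the test.

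Of the 8 outer-membrane genes, 6 had positive adult estimates and 2 negative ones, with a median of 0.07. Over all adult genes 57.9% were positive. Tomm5, printed above and lower in Larp7-/- embryos, had 74 and 79 in mCKO, against 69 and 63 in CTR (log2 change 0.21, SE 0.15, adjusted p = 0.667). Tomm7 had 62 and 62 in mCKO, against 70 and 70 in CTR (log2 change -0.17, SE 0.15, adjusted p = 0.773). Tomm22, the central receptor, had 72 and 71 in mCKO, against 66 and 67 in CTR (log2 change 0.10, adjusted p = 0.906). The groups of these 3 did not overlap. Tomm70a, the receptor for carriers, had 86 and 82 in mCKO, against 76 and 81 in CTR (log2 change 0.10). Tomm20 had 67 and 76 in mCKO, against 72 and 64 in CTR (log2 change 0.07). Tomm40 had 56 and 50 in mCKO, against 48 and 53 in CTR (log2 change 0.07). The receptor Tomm20 and the pore Tomm40 had pairs of opposite sign. Tomm34 and Tomm40l had log2 changes of 0.06 and -0.09.

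Samm50, the core of the machinery that inserts beta-barrel proteins into the outer membrane, had 199 and 203 in mCKO, against 226 and 223 in CTR (log2 change -0.16, SE 0.14, adjusted p = 0.791). Immt, which joins it in a bridge between the membranes, had 496 and 449 in mCKO, against 511 and 558 in CTR (log2 change -0.18, SE 0.14, adjusted p = 0.716). Chchd3 had 432 and 431 in mCKO, against 435 and 437 in CTR (log2 change -0.01). All 3 were lower in both mCKO samples than in either CTR sample, in Chchd3 by a few rounding steps. Chchd6 had 10 and 11 in mCKO, against 8 and 7 in CTR (log2 change 0.44, SE 0.25, adjusted p = 0.497), the highest estimate of the 44, at values where a rounding step of 1 weighs heavily.

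Among small chaperones, Timm10 had 59 and 61 in mCKO, against 49 and 47 in CTR. The means were 60.0 ± 1.41 in mCKO and 48.0 ± 1.41 in CTR (SD, n = 2 each), a log2 change of 0.32 with an SE of 0.15 and adjusted p = 0.332. Its partner Timm9 had 16 and 16 in mCKO, against 15 and 15 in CTR (log2 change 0.09, adjusted p = 0.947), a difference of 1 rounding step. Timm8b, Timm8a1 and Timm13 had log2 changes of 0.00, 0.08 and 0.09. In the TIM22 translocase, Timm22 had 28 and 25 in mCKO, against 22 and 26 in CTR (log2 change 0.14), Timm10b had 7 and 8 in mCKO and the same in CTR, and the subunit Timm29 had a log2 change of -0.09.

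Of the 8 genes of the TIM23 route and its motor, 6 had positive adult estimates, with a median of 0.10. Over all adult genes 57.9% were positive, with a median of 0.08. Timm23, the channel, had 84 and 82 in mCKO, against 76 and 78 in CTR (log2 change 0.11, SE 0.15, adjusted p = 0.892). Timm17a had 138 and 137 in mCKO, against 128 and 128 in CTR (log2 change 0.10, adjusted p = 0.904). Timm50 had 53 and 51 in mCKO, against 46 and 49 in CTR (log2 change 0.13, adjusted p = 0.877). These 3 did not overlap between groups, with mCKO higher, which held for 29.3% of all genes. Timm44 had 82 and 76 in mCKO, against 76 and 80 in CTR (log2 change 0.02), and Grpel1 had 108 and 112 in mCKO, against 115 and 111 in CTR (log2 change -0.04). Timm17b, Grpel2 and Timm21 had log2 changes of 0.17, 0.14 and -0.15, with adjusted p-values of 0.817, 0.879 and 0.867.

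Chchd4 had 34 and 34 in mCKO, against 28 and 29 in CTR (log2 change 0.25, SE 0.16, adjusted p = 0.619). Chchd2 had 320 and 336 in mCKO, against 380 and 364 in CTR (log2 change -0.18, SE 0.14, adjusted p = 0.712). Chchd10, its paralogue, mutated in human motor neuron and muscle disease, had 374 and 360 in mCKO, against 396 and 411 in CTR (log2 change -0.14, SE 0.14, adjusted p = 0.858). In mCKO the values of Chchd4 were higher, and those of Chchd2 and Chchd10 lower, without overlap, and none passed the test. Over all adult genes, 29.3% were higher and 12.8% lower without overlap. Chchd1, a subunit of the mitochondrial ribosome, and Chchd5 had log2 changes of 0.12 and 0.06, and Chchd7 one of -0.17. Chchd2.ps, listed at 2 in all 4 samples, is a processed pseudogene of Chchd2 and may share its reads.

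Of the 28 genes in both tables, 11 had lower estimates in both models, 13 were lower at E15.5 and higher in the adult, 2 were higher in both, 0 were higher at E15.5 and lower in the adult, and 2 had an adult estimate of 0. Chchd6, Tomm5, Timm10, Timm17a and Timm50 were lower at every number at E15.5 and higher at both in the adult, a pattern that 3.31% of the 9769 shared genes had. They are 5 of the 15 import genes lower at every number at E15.5, where 8.78% of all genes were so. In the adult, 29.5% of the 44 import genes and 29.3% of all genes were higher at both numbers. Across the 28 genes the changes in the 2 models had a Pearson correlation of -0.213, and across all shared genes one of 0.146, both as a description. The models differ in age, tissue sampled, deletion and table, so levels are not compared between them.

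**Figure D5:**
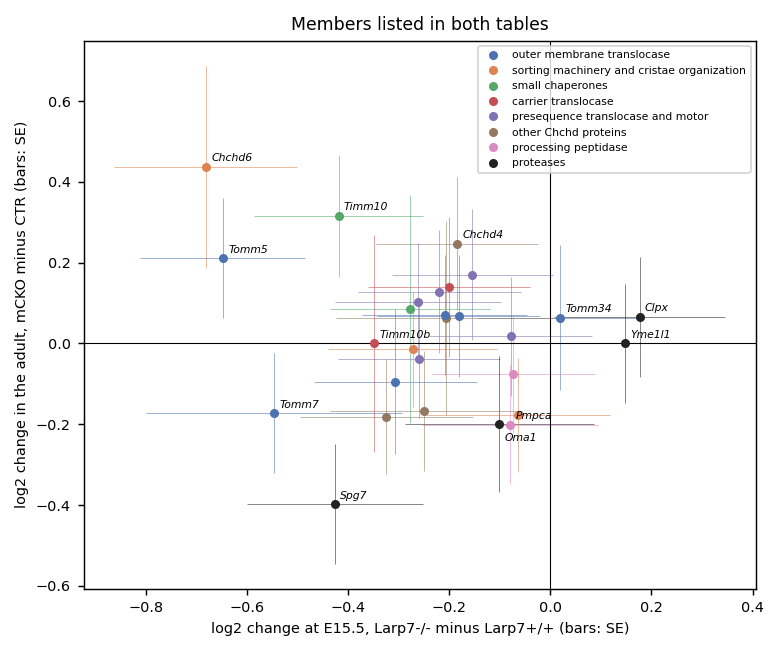
Log2 change at E15.5 (x axis, Larp7-/- minus Larp7+/+) against log2 change in the adult (y axis, mCKO minus CTR) for the 28 genes in both tables, with bars for the SE and colours for the role. Chchd6, Tomm5 and Timm10 lie at upper left, and Spg7 lies low on both axes.

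Other genes of import and quality control, outside the naming rule, were read from a list of 50. At E15.5, 30 were tested and 26 had negative estimates, with a median of -0.22, where 33.1% of all genes were negative, with a median of 0.11. Of the 30, 0 passed limma's adjusted threshold, which 0.632% of all genes passed. Hint2 had the lowest estimate, at 28, 23 and 28 in Larp7-/- hearts, against 38, 43 and 38 in Larp7+/+ hearts (log2 change -0.58, SE 0.18, adjusted p = 0.126). Minos1, a small MICOS subunit, had 97, 93 and 67 in Larp7-/- hearts, against 116, 119 and 145 in Larp7+/+ hearts (log2 change -0.57, SE 0.18, adjusted p = 0.137). Hspe1, the co-chaperonin of the matrix, had 73, 64 and 54 in Larp7-/- hearts, against 82, 91 and 101 in Larp7+/+ hearts (log2 change -0.52, SE 0.17, adjusted p = 0.146). Dnajc19, a co-chaperone at the import motor that is mutated in a human cardiomyopathy, had 51, 49 and 53 in Larp7-/- hearts, against 69, 72 and 68 in Larp7+/+ hearts (log2 change -0.44, SE 0.16, adjusted p = 0.196). None of these genes overlapped between groups, with the knockout lower, which held for 8.75% of all genes. Hspd1, the chaperonin that works with Hspe1, had 805, 930 and 815 in Larp7-/- hearts, against 922, 797 and 911 in Larp7+/+ hearts (log2 change -0.04, adjusted p = 0.95). Clpb, a disaggregase of the intermembrane space, was highest of the list at 85, 94 and 79 in Larp7-/- hearts, against 66, 57 and 72 in Larp7+/+ hearts (log2 change 0.40, SE 0.16, adjusted p = 0.256).

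In the adult 49 of the list were tested, with 30 negative and 15 positive estimates and a median of -0.05. Over all adult genes 28.6% were negative and 57.9% positive, with a median of 0.08. Of these 49, 1 fell and 1 rose, where 3.29% of all adult genes were called. Immp2l, a subunit of the inner membrane peptidase, fell to 5 and 6 in mCKO, against 14 and 14 in CTR (log2 change -1.21, SE 0.25, limma adjusted p = 0.000188). Cox19, a twin-cysteine protein needed for cytochrome oxidase, rose to 80 and 92 in mCKO, against 59 and 46 in CTR (log2 change 0.71, SE 0.15, limma adjusted p = 0.000239). Immp2l, with a mean under 10, was not tested at a mean of at least 10, Cox19 was not called without the replicate block, and neither was called without the rounding variance. Hspa9, the Hsp70 of the import motor, had 630 and 598 in mCKO, against 673 and 706 in CTR (log2 change -0.17, adjusted p = 0.756). Hspd1 had 243 and 269 in mCKO, against 313 and 286 in CTR (log2 change -0.23, adjusted p = 0.597). Beside these, 7 of 10 cardiomyocyte markers had negative adult estimates with a median of -0.09. Of the fibroblast markers, 7 of 8 had positive ones with a median of 0.87, summing to 2270 to 2587 in mCKO and to 1185 to 1500 in CTR, and all 6 erythroid markers tested were positive with a median of 1.40, summing to 1174 to 2663 in mCKO and to 119 to 1371 in CTR. All 7 endothelial markers had negative estimates with a median of -0.15 and 0 called, summing to 760 to 793 in mCKO and to 838 to 870 in CTR. Of 6 macrophage markers 4 were positive with 0 called, summing to 469 to 476 in mCKO and to 413 to 418 in CTR. Of 4 stratified epithelium markers tested 3 were positive and 1 called higher (adjusted p = 0.0471), summing to 188 to 190 in mCKO and to 147 to 148 in CTR. Smooth muscle and pericyte markers had a median of -0.06 with 0 of 5 called. Their part in the adult values was not tested.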

How the data were processed

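Total RNA of 10 mouse heart samples was purified on columns with DNase and sequenced on an Illumina instrument, per the labels' protocols. HISAT2, HTSeq and the build mm10 are named in the submitters' processing notes, without versions. The authors deposited 1 table per model with a score per gene and sample, a per-million value rounded to whole numbers. Whether it is TPM or CPM, and how it came to fixed totals, is stated in no source used here, and counting error cannot be computed. The deposited tables also hold the authors' log2 fold changes and p-values, per the file headers.

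The members and lists were chosen with earlier results of these data known. Each table was fitted alone in limma 3.58.1 (R 4.3.3) on log2(value + 1), with the replicate number as a block. The variance of rounding to whole numbers, 0.0833, was carried to the log2 scale at each gene's mean value, so it shrinks as the mean rises. It was added to the gene's residual variance, followed by eBayes with trend and robust options. Benjamini-Hochberg adjustment ran over all genes that reached a value of 1 in as many samples as a group holds. The block rests on the values: deviations of same-numbered samples were correlated at -0.80, -0.816 and -0.798 at E15.5 and at -0.807 in the adult. Fixed totals, within 2, held in 8328 of 8366 E15.5 genes and 8642 of 8658 adult genes with a mean of at least 10. The scripts were tested on simulated data. Values per sample are given for the 10 members with the largest change at a mean of at least 10 and for core members of each role; outside this rule, Chchd6 in the adult and Chchd3, Tomm34, Timm17b, Tomm6os and Chchd2.ps, in either model, were added after their values were seen. From the list of other pathway genes, examples were likewise chosen after their values were seen. Coordinates and coding lengths come from GENCODE M21 (GRCm38, the same build as mm10). Protein sequences were not used here.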

Additional observations from a re-analysis of the deposited data

Results flagged for a closer look

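In 5 genes all 3 E15.5 pairs had the Larp7-/- sample lower while both adult pairs had the mCKO sample higher. Of the shared genes 3.31% had this pattern, and 29.3% of all adult genes were higher in both pairs. The difference between the models was not tested, since the tables were normalized separately. The E15.5 log2 change minus the adult one was -1.119 for Chchd6, a MICOS subunit, whose changes were -0.68 at E15.5 and 0.44 in the adult. It was -0.8584 for Tomm5, a small TOM subunit, with changes of -0.65 and 0.21. For the chaperone gene Timm10 it was -0.7347, with changes of -0.42 and 0.32. Timm17a and Timm50 of the presequence translocase had -0.3647 and -0.3474. Their changes were -0.26 and -0.22 at E15.5 and 0.10 and 0.13 in the adult, where the median over all tested genes was 0.08.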

How the results depend on the processing

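The median of the E15.5 genes stayed negative under each alternative run, at -0.2978 with median-of-ratios scaling and between -0.2441 and -0.1949 when single samples were left out. The number called lower at E15.5, 0 as reported, was 4 with no replicate block, 3 with no filter on low values (Chchd6, Tomm5 and Tomm6), 2 with a pseudocount of 5 (Chchd6 and Tomm5) and 0 to 2 when single samples were left out. Calls over the other pathway genes at E15.5, 0 as reported, were 3, 2 and 0 to 1 under the first, the second and the last of these. In the adult 1 gene was called lower with no replicate block and with median-of-ratios scaling (Spg7 both times), 1 with the block and no rounding variance (Tomm7), and 0 to 1 when single samples were left out. The 2 calls among other adult pathway genes became 1 with no replicate block (Immp2l), 1 with no rounding variance (neither of the 2) and 1 with a mean of at least 10 (Cox19, Immp2l being under that mean). The adult median of 0.04 was 0.01759 with a mean of at least 10, 0.03167 with a pseudocount of 5, -0.01879 with median-of-ratios scaling, and 0.01568, 0.02736 and 0.003816 without mCKO 1, mCKO 2 and CTR 1, fitted with no block. The cause of the other moves was not tested.

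Single samples decided the sign of several small estimates. At E15.5 the lowest and highest values were -0.3212 and 0.05833 for Pmpca, -0.2777 and 0.02722 for Oma1, -0.2249 and 0.07883 for Immt, -0.05774 and 0.3227 for Clpx, -0.01644 and 0.2653 for Yme1l1, and -0.1639 and 0.02389 for Pmpcb. In the adult, without mCKO 1 and then without CTR 1, Timm44 was at -0.03653 and -0.01894 (also -0.04433 with median-of-ratios scaling) and Tomm40 at -0.01237 and -0.00223. Without mCKO 2 and then without CTR 2, Timm8a1 was at -0.09632 and -0.01136, Tomm20 at -0.01863 and -0.0127, and Lonp1 at 0.05226 and 0.05143.

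Crossing the adult numbers in the replicate block was an alternative chosen after seeing the data, and it aligned the mirrored deviations by construction. It called 17 import genes higher, 14 lower and 26 of the other pathway genes. The share of all genes called under this setting is not given here, so these counts are not a result about import genes. Counts over all genes moved under the other alternatives as well. The 72 higher and 14 lower E15.5 genes became 430 and 174 with no block, 0 and 0 with no rounding variance or a mean of at least 10, 480 and 121 with no filter, 195 and 37 with a pseudocount of 5, 26 and 13 with median-of-ratios scaling, 11 and 1 without the robust option, and 171 to 422 and 40 to 87 when single samples were left out. The 347 and 141 adult genes became 833 and 297 with no rounding variance, and 383 to 981 and 223 to 302 when single samples were left out. Rounding to whole numbers and fixed totals limit what can be resolved in genes of low value, and depth is not known.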
